A study of Mus musculus with 22 samples.

Results

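Lamina-associated domains (LADs) are long stretches of chromosome that touch the nuclear lamina, the protein meshwork under the inner membrane of the nuclear envelope (NE). They hold mostly silent chromatin that carries repressive histone marks, and they appear as alternating blocks along each chromosome, separated by stretches that do not touch the lamina. In DamID, the adenine methyltransferase Dam of a bacterium is joined to lamin B1, a lamina protein, so that DNA at the lamina becomes methylated in the living cell. Unfused Dam serves as the control for how accessible each region is.

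The blocks described here are the mid-sized blocks of WT mouse embryonic fibroblasts (MEFs). In each of 3 WT LAD lists, intervals under 25 kb apart on chromosomes 1 to 19 were joined, and the joined intervals over 100 kb were kept as LADs. A consensus block was a continuous run of bases present in all 3 WT lists, and blocks from 250 kb to under 1 Mb were taken. This gave 904 blocks with 452.859 Mb, out of 2105 consensus blocks of any length with 1270.45 Mb. They made up 42.9% of the blocks and 35.6% of the consensus bases. The blocks were chosen by the WT lists themselves, so every WT list covers them entirely, and WT values over them are given as a description only.

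The series held 22 DamID samples of primary C57bl/6 MEFs, which were taken from e13.5 embryos and grown for no more than 5 passages. They form 11 pairs of an experiment and a control sample, and each pair gave 1 list. The WT lists came from untreated cells of embryos 1.5, 1.8 and x17, so they are not cells with a control hairpin or with a drug's solvent. The shAC lists came from embryos 1.5 and x17, in which the Dam virus was added 4 days after a virus with a hairpin against lamin A/C and puromycin selection, and cells were harvested 48 h later. Lamin A and C are the lamins made from Lmna, and they form networks separate from each other and from that of lamin B1. The 3 drug treatments had 2 lists each, from embryos 1.8 and x17. BIX01294 inhibits the histone methyltransferase G9a, which makes H3K9me2, a mark of peripheral silent chromatin. DZNep lowers EZH2, the enzyme that makes H3K27me3, and TSA inhibits histone deacetylases. The drugs were given for 18 to 24 h before the Dam virus, and these cells were harvested at 60 h, counted from a step that the labels do not give. Hairpin and drug cultures thus differed in their handling as well as in their target, and these cannot be told apart here. The lists hold positions (mm9) with no level, so the depth behind each call is unknown, and the level of lamin A/C could not be checked in them.

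After joining and filtering, the 11 lists held 1849 to 2239 autosomal LADs with 1302.16 to 1535.86 Mb. The TSA lists were among the shortest, at 1356 Mb (embryo 1.8) and 1302 Mb (embryo x17), and the shAC list of embryo x17 had 1339 Mb. The other 5 treated lists had 1431 to 1536 Mb and the WT lists 1377 to 1507 Mb. The members were found on every autosome, from 22 on chromosome 19 to 78 on chromosome 2. They were sparsest on chromosome 14, with 2.78 blocks per 10 Mb, and densest on chromosome 10, with 4.57 blocks per 10 Mb.

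Most members were nearer to the lower limit of length than to the upper one. Lengths ran from 250.001 to 997.027 kb with a median of 451 kb and quartiles of 328 and 646 kb. There were 527 blocks of 250 to 500 kb, 238 of 500 to 750 kb and 139 of 750 kb to 1 Mb. At the limits, the block chr10:104737538-104987297 was left out at 249.76 kb, while chr6:22486059-22736059 was taken at 250.001 kb. At the upper limit, chr7:5074419-6071445 was taken at 997.027 kb and chr3:69579271-70581658 was left out at 1002.39 kb.

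A mid-sized consensus block was often the shared core of a longer LAD. The WT LAD that held a member had a median length of 636 kb in embryo 1.5, 682 kb in embryo 1.8 and 642 kb in embryo x17. It stayed under 1 Mb in all 3 WT lists for 505 members and reached 1 Mb in every list for 27. The 3 WT edges at one end of a block lay a median of 87.4 kb apart over 1808 edges. They lay within 25 kb for 572 edges (31.6%), and they lay more than 250 kb apart for 600 edges (33.2%). The outer limit of a typical member was therefore a broad zone in WT, and the consensus edge is the innermost of the 3.

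Members were mostly neighbours of other consensus blocks across short gaps. The 1401 gaps beside members had a median of 196 kb and ran from 25.1 to 12119 kb. The nearer neighbour lay a median of 74.2 kb away, within 100 kb for 519 members (57.4%) and more than 500 kb away for 68 (7.52%). The most isolated member was chr6:35558817-36525193, with 2373 kb to its nearer neighbour, followed by chr8:128403090-128933583 and chr8:131269670-131736489, which face each other across 2336 kb. All 3 of these had at least 92.0% kept in every treated list.

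Members kept most of their bases in LADs under every treatment, and they kept least under TSA. The share of member bases in LADs was 97.8% in shAC embryo 1.5 and 93.4% in shAC embryo x17. It was 98.1% and 99.1% under BIX01294 (embryos 1.8 and x17) and 97.8% and 97.9% under DZNep. It was 89.9% and 89.5% under TSA. Both TSA lists lay below all 6 others, and shAC embryo x17 lay between them and the rest. The means were 95.6% ± 3.13 for shAC, 98.6% ± 0.719 for BIX01294, 97.8% ± 0.0851 for DZNep and 89.7% ± 0.340 for TSA (SD, n = 2 each). The 4 treatments differed in an exact permutation test over all ways to give 8 lists to 4 treatments of 2 (p = 0.0190, Benjamini-Hochberg adjusted over 7 measures p = 0.0267). With arrangements kept within replicate number, the adjusted exact permutation p was 0.117, where the smallest unadjusted p that this design allows is 0.0417. The call held without the shAC list of embryo 1.5 (adjusted exact permutation p = 0.0333), and it was lost when any 1 other treated list was left out (0.08 to 0.211) or without WT embryo 1.8 (0.0667). It was also lost with lists as deposited, where the largest and smallest means lay 4.64 points apart in place of 8.93 (0.08), with LADs over 200 kb (0.0667), as a mean over members (0.0667) and without the outer 50 kb (0.0533). For each of the 7 measures, values with lists as deposited or joined under 50 kb rest on blocks set again from WT lists processed alike. They are therefore not values over the same 904 members. With LADs over 200 kb the other 4 measures that passed the threshold were lost as well, each with an adjusted exact permutation p of 0.0667. The lists held 9.84 and 29.9 Mb less of the member bases under shAC, 8.48 and 3.87 Mb less under BIX01294, 10.1 and 9.52 Mb less under DZNep, and 45.5 and 47.7 Mb less under TSA.

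The 3 lists that kept least were also the 3 shortest of the treated lists. Among them, the TSA list of embryo 1.8 (1356 Mb) was longer than the shAC list of embryo x17 (1339 Mb), and it kept 89.9% of the member bases against 93.4%. When the shortest LADs of every list were removed until all lists had the length of the shortest, a choice made after the data were seen, TSA kept 88.9% and 89.5%. The other 6 lists then kept 91.0% to 96.0%. This trimming takes out whole LADs, which can hold members, from the longer lists. TSA had the lowest mean, and the adjusted exact permutation p was 0.0667. A list's length includes the member bases it keeps, and the part of list length in the share kept was not tested.

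**Figure D1:**
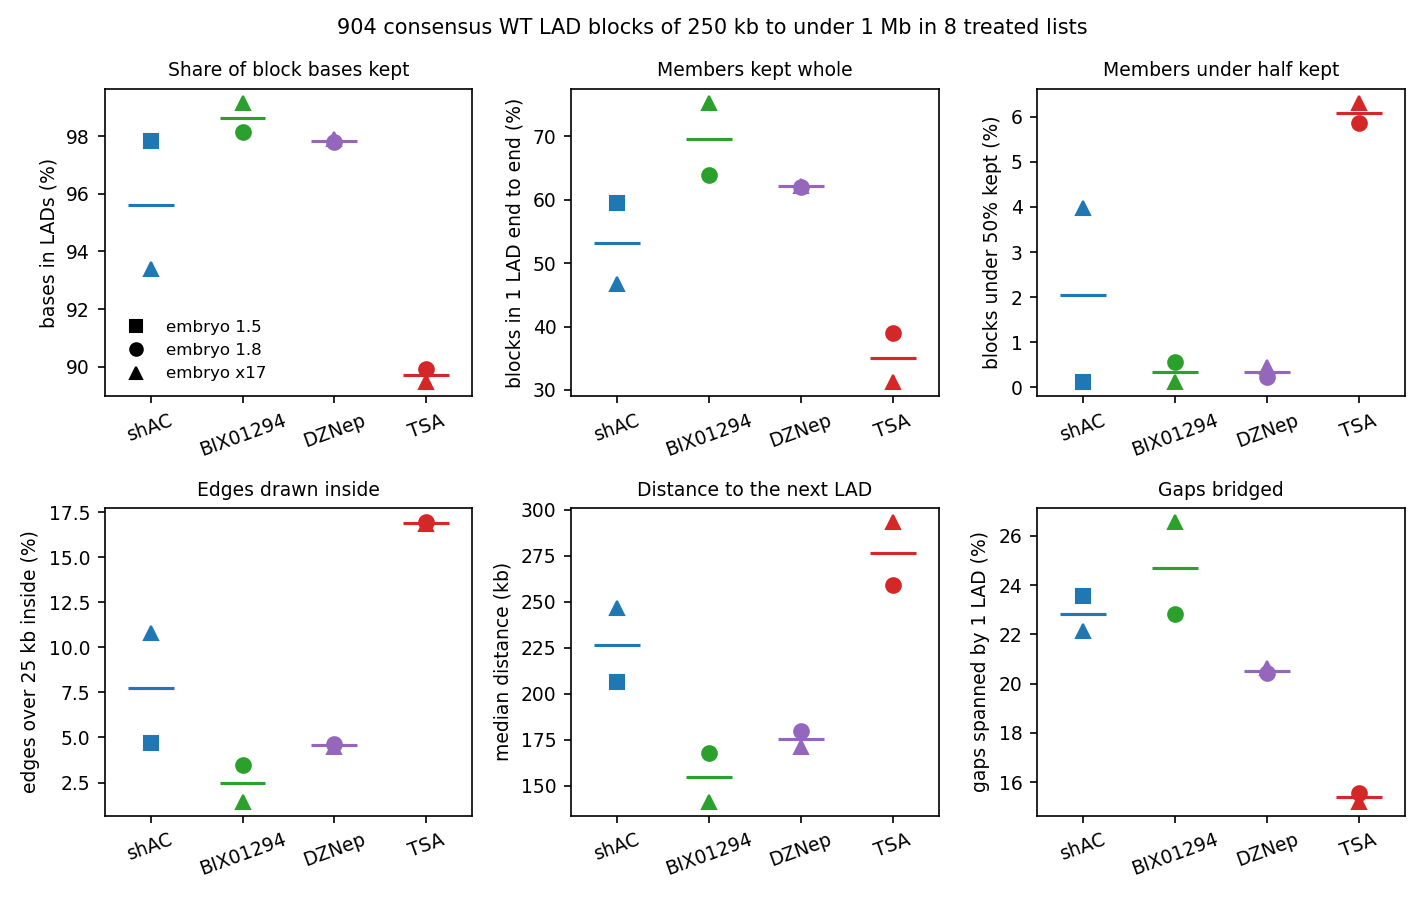
Each panel gives 1 measure over the 904 blocks, with 1 point per treated list (shape gives the embryo) and a line at the mean of the 2 lists. The vertical axes do not start at 0. Both TSA points lie below all others for the share of bases kept (89.5% and 89.9%), for members kept whole and for gaps bridged, and above all others for members under 50% kept, edges drawn inside and distance to the next LAD.

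Whole blocks gave the same order with wider steps. A member counted as kept whole when a single LAD of the list held it from end to end. This was so for 538 and 422 members under shAC (59.5% and 46.7%), for 578 and 680 under BIX01294 (63.9% and 75.2%), and for 561 and 562 under DZNep (62.1% and 62.2%). Under TSA it was so for 352 and 282 members (38.9% and 31.2%). The TSA lists did not overlap those of any other treatment, whereas 1 of the shAC lists lay near the DZNep lists. The means were 53.1% ± 9.07 (shAC), 69.6% ± 7.98 (BIX01294), 62.1% ± 0.0782 (DZNep) and 35.1% ± 5.48 (TSA; SD, n = 2 each). The exact permutation p was 0.00952, the smallest that the design allows, with an adjusted p of 0.0222. Within replicate numbers the adjusted exact permutation p was 0.0972. The call was also lost without shAC or BIX01294 embryo x17 or without any 1 of the DZNep or TSA lists (0.0667 to 0.211), and with lists as deposited (0.08). Both lists of a treatment kept the same 310 members whole under shAC, 451 under BIX01294, 395 under DZNep and 170 under TSA. Members that lay in more than 1 LAD of a list numbered 56 and 85 under shAC, 44 and 24 under BIX01294, 55 and 47 under DZNep, and 66 and 88 under TSA.

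Some members were kept whole whatever the treatment. All 8 lists kept 54 members whole (5.97%), and 19 members were whole in none. The longest 3 of the 54 were chr8:28406717-29399504 (993 kb), chr1:27125898-28037542 (912 kb) and chr12:58657959-59504661 (847 kb). In all, 791 members (87.5%) kept at least 50% of their bases in every treated list, and no member was under 50% in more than 3 lists.

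Members that lost most of their bases were few outside TSA and shAC embryo x17. Under 50% was kept of 1 and 36 members under shAC, of 5 and 1 under BIX01294, of 2 and 4 under DZNep, and of 53 and 57 under TSA. Shares over all 2105 consensus blocks are given further on, for blocks under 50% in both lists of a treatment. No base was kept of 0 and 13 members under shAC, of 1 and 0 under BIX01294, of 0 and 2 under DZNep, and of 22 and 29 under TSA. The mean shares of members were 2.05% ± 2.74 (shAC), 0.332% ± 0.313 (BIX01294), 0.332% ± 0.156 (DZNep) and 6.08% ± 0.313 (TSA; SD, n = 2 each). The treatments were not told apart by this measure (exact permutation p = 0.143, adjusted p = 0.143), but they were without the shAC list of embryo 1.5 (adjusted p = 0.0444). With lists as deposited, and blocks set again from them, the means were lower, at 0.716% for shAC, 0.0477% for BIX01294, 0% for DZNep and 2.05% for TSA. With LADs over 200 kb they were 4.92%, 0.608%, 1.49% and 9.02%, and with blocks set without WT embryo x17 they were 6.78%, 0.646%, 1.56% and 9.47%, in the same order. TSA had the highest mean in each of these settings. Within shAC the 2 lists lay further apart than any other pair, with 36 members in embryo x17 against 1 in embryo 1.5. With all lists trimmed to equal length, BIX01294 had the highest mean, 11.6%, against 6.42% for TSA (exact permutation p = 0.00952, adjusted p = 0.05). The part of list length and that of the removed LADs were not told apart.

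**Figure D2:**
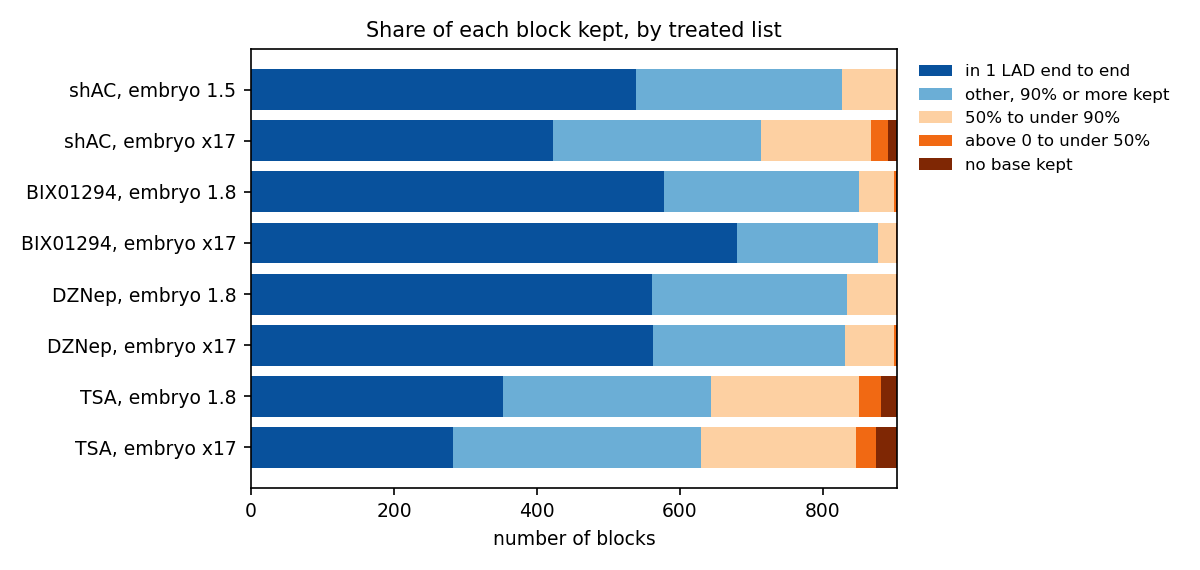
Horizontal bars give the number of the 904 blocks in each class of share kept, from blocks in 1 LAD end to end to blocks with no base kept, for each treated list. Blocks with under 50% kept number 53 and 57 in the TSA lists, 36 in shAC embryo x17 and 1 to 5 in the other lists.

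Repeated loss of the same block was seen under TSA. Under 50% was kept in both lists of 0 members under shAC, 0 under BIX01294, 0 under DZNep and 28 under TSA. Over all 2105 consensus blocks, the corresponding shares were 2.9%, 0.57%, 0.713% and 8.03%. The 28 members are 3.097% of all members, below the 8.03% of all blocks under TSA, where short blocks are included. They are 52.8% of the 53 members under 50% in embryo 1.8 and 49.1% of the 57 in embryo x17. Of the 28, 12 had no base kept in either TSA list, and 24 (85.7%) were not under 50% in any list of another treatment, which was so for 860 of all 904 members (95.1%). The share kept per member correlated between the TSA lists with Pearson's r = 0.575 over 904 members. The value was 0.288 between the shAC lists, 0.201 between the DZNep lists and 0.0832 between the BIX01294 lists, against 0.0347 to 0.309 between lists of different treatments. These correlations describe members that share their library and the WT lists that set their limits.

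The 28 members did not gather in 1 place. They lay on 16 chromosomes, with 4 on each of chromosomes 2 and 10 and 3 on chromosome 6, and were 257.559 to 778.18 kb long. Their median length was 378 kb, against 458 kb for the other 876 members, and their nearer neighbour lay a median of 46.6 kb away, against 75.04 kb. They were also kept less in the other 6 treated lists, where the median of their mean share was 94.6%, against 99.0% for the rest. Only 1 of them was whole in all those 6 lists (3.57%), whereas 128 of the other members were (14.6%). The 28 were selected on the TSA lists, so these are descriptions.

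The longest members without a kept base in either TSA list were 3 blocks on chromosomes 10 and 16. The block chr10:97222796-97766197 (543 kb) was kept to a greater share elsewhere, with 83.1% in BIX01294 embryo 1.8 and 100% in each of the other 5 lists outside TSA. The block chr10:29727345-30242684 (515 kb) had 94.5% and 92.6% under shAC, 100% and 100% under BIX01294, and 92.8% and 99.9% under DZNep. The block chr16:64888053-65371469 (483 kb) had 86.9% and 94.7% under shAC, 82.9% and 100% under BIX01294, and 98.5% and 100% under DZNep. A wider contrast was found at chr10:26907181-27288539 (381 kb), with 100% in all 6 lists outside TSA and 0% in both TSA lists. At chr2:151403686-151683648 (280 kb) the 6 lists outside TSA had 99.1% to 100%, and the TSA lists had 0%. Of the 28 members, 3 had no base kept in either TSA list and over 90% in each of the other 6 lists.

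**Figure D3:**
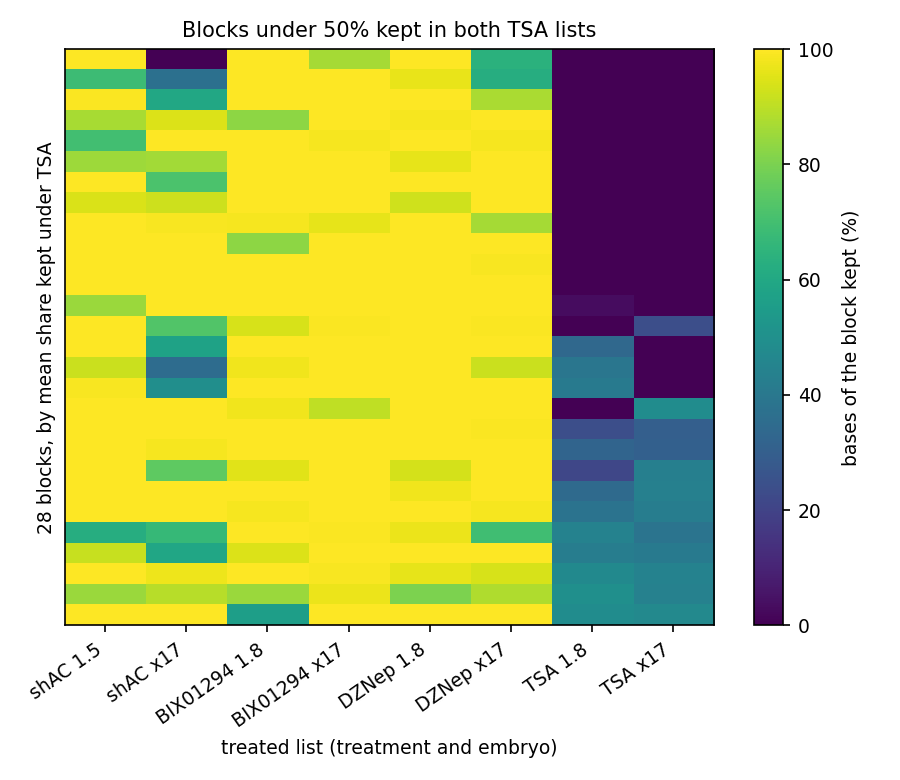
Each row is 1 of the 28 blocks under 50% kept in both TSA lists, ordered by its mean share under TSA, each column is a treated list, and color gives the percent of the block's bases kept. The 12 blocks without a kept base in both TSA lists are at the top, and most cells of the 6 other lists are near 100%.

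Losses under shAC were carried by the list of embryo x17. The member with the lowest mean under shAC was chr5:35455140-35711059 (255.92 kb), which had 69.0% in embryo 1.5, 0% in embryo x17 and 100% in all 6 drug lists. The next was chr6:97401763-97741377 (339.615 kb), with 76.6% and 0% under shAC, but it had also 74.1% to 76.8% in 3 of the drug lists. The block chr10:61318553-61720094 (402 kb) had 81.2% and 0% under shAC and 100% in the drug lists. Similar values in both shAC lists were found at chr9:120050610-120473182 (423 kb), with 81.6% and 81.3%, against 100% in all drug lists. The shAC lists differed most at chr18:10197482-10579366, which had 100% in embryo 1.5 and 0% in embryo x17, and 0% in both TSA lists too. Thus no member was under 50% in both shAC lists.

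Under BIX01294 and DZNep the lowest members differed widely between the 2 lists. The block chr1:175699638-175958804 (259 kb) had 0% in BIX01294 embryo 1.8 and 100% in embryo x17. The block chr13:92104903-92989712 (885 kb) had 22.4% and 100% under BIX01294, and 96.3% and 0% under TSA. Only chr7:38419096-38716617 was lower under BIX01294 than in all 6 other lists, with 98.9% and 99.1%, against 99.3% to 100%. For DZNep the lowest was chr3:9863117-10120816 (258 kb), with 53.3% and 0%, and this block had 0% in shAC embryo x17 and 41.3% in TSA embryo x17 as well. A partial loss in both DZNep lists was seen at chr3:67892302-68256306 (364 kb), with 74.7% and 78.5%, against 99.9% to 100% in the other 6 lists.

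Where bases were lost, they were lost mainly from the ends. In the first 25 kb inside the consensus edges, the share of bases in LADs was 91.7% and 82.8% under shAC, 92.9% and 96.6% under BIX01294, and 91.7% and 91.9% under DZNep. It was 75.3% and 73.3% under TSA. At 100 to 125 kb from the edge it was 98.6% and 94.1%, 98.9% and 99.2%, and 98.7% and 98.6% in the same order, and 90.8% and 90.6% under TSA. All 8 lists were thus higher further inward, and the TSA lists remained lowest at each of the 5 steps of 25 kb. The consensus edge is the innermost of the WT edges, so a further list can miss bases just inside it whatever the treatment. The part of this in the rise was not tested. With the outer 50 kb of each side left out, the share kept was 92.6% and 92.3% under TSA, 98.8% and 95.3% under shAC, and 98.7% to 99.5% in the 4 other lists.

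Split by kind, lost bases at block ends, with the rest of the block still kept, made up 66.7% to 76.1% of all lost bases in the 8 lists. Members lost from end to end made up 18.4% and 22.7% under TSA and 0% and 13.8% under shAC, against 0% to 5.50% in the other lists. Interior losses were the remainder, with 8.04% and 10.7% under TSA and 16.9% to 27.997% in the other lists. These are shares of unequal amounts, since the TSA lists lost several times as many bases as the BIX01294 and DZNep lists. The limit set by the innermost WT edge holds for the losses at block ends too.

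Single edges gave the same picture. An edge counted as drawn inside when the first kept base lay more than 25 kb inside the consensus edge, among the 1750 to 1808 edges of members with a kept base. This was so for 85 and 192 edges under shAC (4.70% and 10.8%), for 63 and 26 under BIX01294 (3.49% and 1.44%), and for 84 and 81 under DZNep (4.65% and 4.49%). Under TSA it was so for 299 and 295 edges (16.95% and 16.9%). The TSA lists lie close to each other and above all others, and shAC embryo x17 lies between. The means were 7.74% ± 4.29 (shAC), 2.46% ± 1.45 (BIX01294), 4.57% ± 0.110 (DZNep) and 16.9% ± 0.0657 (TSA; SD, n = 2 each; exact permutation p = 0.00952, adjusted p = 0.0222, and 0.0972 within replicate numbers). The call was lost without any 1 treated list other than shAC embryo 1.5 (adjusted exact permutation p 0.0667 to 0.15). It was lost with lists as deposited (difference of means 7.02 in place of 14.4 points), and for edges more than 50 kb (10.8) or 100 kb (6.02) inside. With blocks set without WT embryo x17 the means were higher, at 13.26% for shAC, 5.33% for BIX01294, 8.22% for DZNep and 21.4% for TSA. Without WT embryo 1.5 they were 12.2%, 3.96%, 7.98% and 21.9%, and without WT embryo 1.8 they were 9.93%, 4.201%, 6.66% and 19.4%, so TSA was highest each time. The median depth of an edge drawn inside was 81.5 and 79.6 kb under TSA, 55.3 and 83.9 kb under shAC, and 54.7 to 63.2 kb in the 4 other lists.

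**Figure D4:**
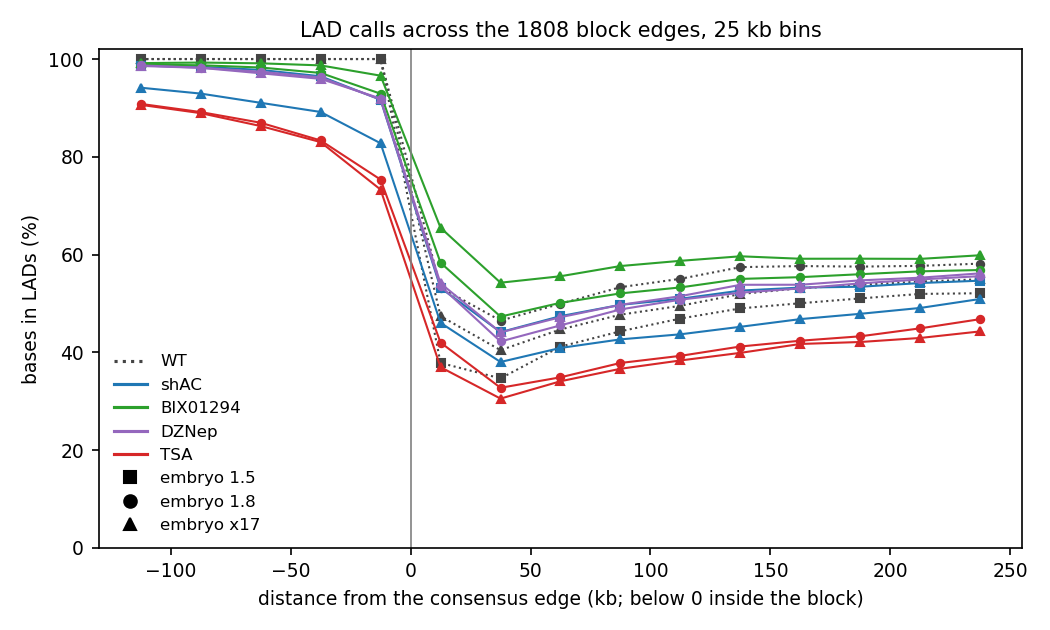
The line plot gives the percent of bases in LADs in 25 kb bins against distance from the 1808 consensus edges, with values below 0 inside the block, for each of the 11 lists. WT is at 100% inside by construction, and the TSA lines are lowest on the inner side, at 75.3% and 73.3% in the first bin.

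The treatments were not told apart by outward movement of edges. An edge counted as moved outside when its LAD reached more than 25 kb past the outermost of the 3 WT edges. The shares were 10.96% and 9.76% under shAC, 12.0% and 15.9% under BIX01294, 7.72% and 9.32% under DZNep, and 10.5% and 7.20% under TSA, among edges still in a LAD. BIX01294 had the highest mean, 14.0% ± 2.76, and the TSA range overlapped those of shAC and DZNep, which did not overlap each other (exact permutation p = 0.0762, adjusted p = 0.0889). Edges that were neither drawn inside nor moved outside, and so lay within the WT limits or at most 25 kb beyond them, made up 81.1% to 89.1% of all edges outside TSA and 74.4% and 76.3% under TSA. The shares of edges moved outside depend on the WT lists that set the outer limit. With 1 WT list left out they lay between 16.7% and 22.7% for shAC, 21.4% and 25.6% for BIX01294, 12.78% and 17.2% for DZNep, and 15.3% and 17.3% for TSA.

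A few edges were carried megabases outward in both lists of a treatment. Under shAC the end of chr3:41561613-42367237 lay 5787 and 6420 kb (6419.68 kb) past the outermost WT edge, and that of chr8:18960914-19783125 lay 3476 and 3434 kb past it. Under BIX01294 the end of chr10:99652766-99910533 lay 3622 and 5110 kb (5110.14 kb) past it, and the start of chr12:50505892-50932667 lay 2378 and 2973 kb past it. Under DZNep the start of chr5:8320540-8795284 lay 2317 and 2376 kb past it. The furthest under TSA was the shared end of chr11:55332828-56164681 and chr11:56202805-56730301, at 498 and 466 kb. Such a distance means that 1 LAD of the list ran on over neighbouring blocks and gaps, so it is not the length of newly gained bases.

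Members stood further from the next LAD under TSA. The median distance from the LAD that held a member to the next LAD was 206 and 246 kb under shAC, 168 and 141 kb under BIX01294, and 180 and 171 kb under DZNep. It was 259 and 293 kb under TSA. In WT it was 210 kb (embryo 1.5), 137 kb (embryo 1.8) and 188 kb (embryo x17). Among the treated lists, both TSA values lie above all others, and the shAC values follow. The means were 226 ± 28.5 kb (shAC), 155 ± 18.7 kb (BIX01294), 175 ± 6.11 kb (DZNep) and 276 ± 23.9 kb (TSA; SD, n = 2 each; exact permutation p = 0.00952, adjusted p = 0.0222, and 0.0972 within replicate numbers). The call was lost without any 1 treated list other than shAC embryo 1.5 (adjusted exact permutation p 0.0667 to 0.211), and with lists as deposited, where the means lay 26.8 kb apart in place of 122 kb. With the mean in place of the median, shAC stood furthest (571 kb) and TSA followed (515 kb), and the adjusted exact permutation p was 0.0667. With lists trimmed to equal length, the mean for TSA was the lowest, 317 kb, and that for BIX01294 the highest, 486 kb (adjusted exact permutation p = 0.0857). The removal of whole short LADs from the longer lists lengthens distances by construction.

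Against the WT list of the same embryo, gaps were more often wider than narrower under TSA. The WT lists chose the members, so a WT LAD always holds a member to both ends. Only a treated LAD can begin inside a member and so show a wider gap, and these values are a description. The gap on a member's side was more than 25 kb wider for 54.3% and 49.6% of sides under TSA and narrower by as much for 20.3% and 20.1%. Under shAC the 2 embryos went opposite ways, with 29.5% wider and 36.1% narrower in embryo 1.5, and 45.0% wider and 15.7% narrower in embryo x17. BIX01294 and DZNep were split too, with 34.5% and 39.1% wider against 23.7% and 18.99% narrower in embryo 1.8, and 19.2% and 25.6% wider against 42.2% and 31.0% narrower in embryo x17.

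The gaps between members and their neighbours were bridged less often under TSA. A gap was bridged when 1 LAD spanned it, which was so for 330 and 310 of the 1401 gaps under shAC (23.6% and 22.1%), 320 and 372 under BIX01294 (22.8% and 26.6%), and 286 and 289 under DZNep (20.4% and 20.6%). Under TSA 218 and 213 gaps were bridged (15.6% and 15.2%). In the WT lists 18.986%, 19.8% and 19.3% of the gaps were bridged, a value that the choice of blocks limits, since no gap can be bridged in all 3. The TSA lists lie below all other treated lists. Because of that limit the WT shares are a description, and the treated lists are not ranked against them. The treatments differed (means 22.8% ± 1.009, 24.7% ± 2.62, 20.5% ± 0.151 and 15.4% ± 0.252 for shAC, BIX01294, DZNep and TSA, SD, n = 2 each; exact permutation p = 0.0190, adjusted p = 0.0267, and 0.117 within replicate numbers). The call was lost without shAC or BIX01294 embryo x17 or any 1 of the DZNep or TSA lists (adjusted exact permutation p 0.0667 to 0.15), and with lists as deposited (0.238). As deposited, the mean shares bridged were 34.5% for shAC, 36.4% for BIX01294, 34.2% for DZNep and 30.1% for TSA. TSA remained lowest with lists trimmed to equal length, where TSA bridged 15.5% and 15.2% and the others 20.4% to 26.3%.

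Whether a gap was bridged followed its width and what the WT lists did there. Gaps of 25 to 50 kb were bridged in 46.0% and 46.4% under TSA and in 62.6% to 73.5% in the other treated lists, whereas gaps of 250 kb and more were bridged in at most 1.65% in every treated list. Of the 307 gaps that 2 WT lists bridged, the TSA lists bridged 50.8% and 51.1% and the others 66.4% to 78.8%. Of the 894 gaps that no WT list bridged, the treated lists bridged 0.895% to 3.91%. A member's merger with its neighbours under a treatment was thus mostly one that some WT list already had.

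Neither the treated lists nor the WT lists of the same embryo enter the choice of blocks when the blocks are taken from the other 2 WT lists. Over such blocks of 250 kb to under 1 Mb (859 to 929 blocks), TSA kept 87.6% against 97.6% in WT in embryo 1.8, and 84.8% against 93.5% in embryo x17. The differences of -9.99 and -8.68 percentage points had a mean of -9.34 ± 0.927 (SD, n = 2), and with lists as deposited the mean was -5.88. For shAC they were 3.35 points in embryo 1.5 and -6.21 points in embryo x17, of opposite sign. For BIX01294 they were -0.657 and 4.03 points, and for DZNep -1.19 and 1.47 points. Only TSA was lower than WT in both embryos. With 2 embryos an exact sign-flip permutation test cannot give a p below 0.5, so no test was made. Under 50% was kept of 7.92% and 10.5% of these blocks under TSA, against 0.466% and 4.31% in the WT lists. Under shAC it was 0.657% in embryo 1.5, against 4.27% in WT, and 11.1% in embryo x17, against 4.31% in WT, which was above the TSA list of that embryo. The BIX01294 and DZNep lists had 0.431% to 2.37%.

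**Figure D5:**
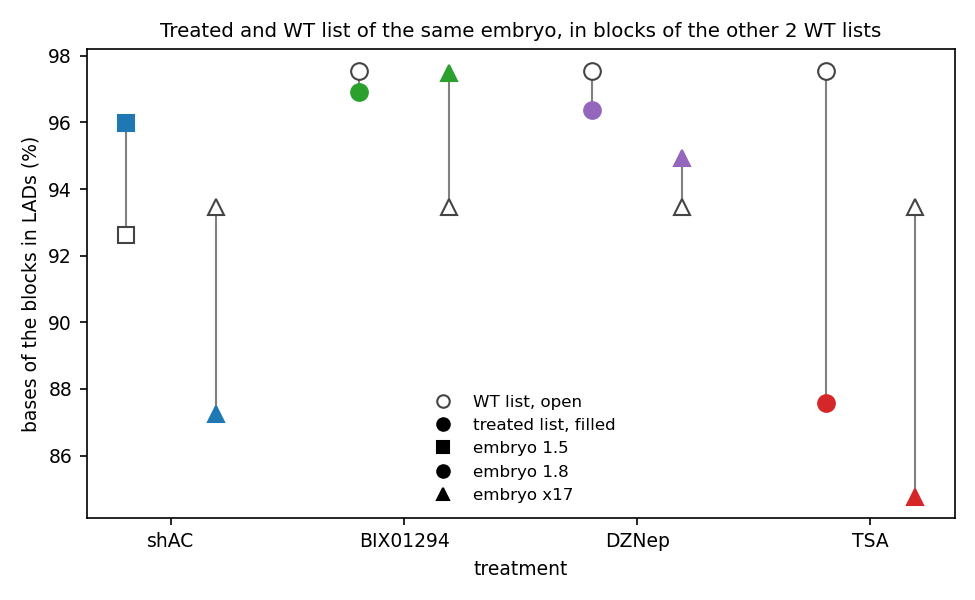
Vertical lines join the WT list (open) and the treated list (filled) of the same embryo, on an axis of percent of bases kept that does not start at 0, over blocks set by the other 2 WT lists. The TSA points differ from their WT lists by -9.99 and -8.68 points, and for shAC, BIX01294 and DZNep the 2 embryos go opposite ways.

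The share kept followed the length of the block. Consensus blocks under 250 kb kept 72.1% to 96.9% over the 8 lists and blocks of 1 Mb and more kept 96.7% to 99.8%. Members kept 9.11 points more than the short blocks on average (SD 6.44, n = 8; range 2.24 to 17.7, higher in 8 of 8 lists; two-sided exact sign-flip permutation test, p = 0.0078125). They kept less than the long blocks (mean difference -3.30 points, SD 2.78, n = 8; range -7.55 to -0.624, higher in 0 of 8 lists; exact sign-flip permutation test, p = 0.0078125). This p is the smallest that 8 lists allow, and lists of the same embryo are not independent. With lists as deposited, and blocks set again from them, the mean difference from the long blocks was -1.82 points. The part of edge losses in this order was not tested.

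Among the members, the shortest blocks had the lowest share in each treatment. Blocks of 250 to 500 kb had mean shares of 93.3% (shAC), 98.4% (BIX01294), 97.1% (DZNep) and 86.3% (TSA). Blocks of 500 to 750 kb had 96.7%, 98.9%, 98.1% and 91.2%, and blocks of 750 kb to 1 Mb had 97.9%, 98.7%, 98.7% and 93.2%. Under BIX01294 the middle class had the highest mean, with 98.5% against 98.1% for the longest class in embryo 1.8, but 99.28% against 99.32% in embryo x17. The step from the shortest to the longest class was smallest under BIX01294, at 0.163 and 0.388 points, and was 5.82 and 8.01 points under TSA. Under shAC it was 1.39 points in embryo 1.5 and 7.84 in embryo x17.

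The share kept also varied among chromosomes and with spacing. Under TSA members on chromosome 13 kept least (84.5%, 47 members), followed by chromosome 10 (85.4%), and those on chromosome 14 most (93.4%, 34 members). The lowest mean under shAC and DZNep was that of chromosome 19, with 92.8% and 96.0% over 22 members, and under BIX01294 that of chromosome 18, with 97.1% over 35 members. The shAC lists had 88.1% and 97.5% on chromosome 19 and at most 95.7% on chromosome 11, so chromosome 19 was not lowest in both. The 68 members with more than 500 kb to the nearer neighbour kept 94.5% under TSA, against 89.4% for the 519 with a neighbour within 100 kb. Under shAC the corresponding values were 94.3% and 96.4%.

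Short breaks inside members were common in every list and varied among the lists of one group. In the lists as deposited, a break of 10 to 25 kb was found in 22.2%, 34.3% and 48.5% of members in the 3 WT lists. The treated lists had such a break in 29.6% to 46.9% of members, with the TSA lists at 29.6% and 37.8%. The joining step closed these breaks. The members were chosen as continuous in every WT list after joining, whereas wider breaks and lost ends of treated lists fall outside this count. These shares therefore cannot tell whether the TSA lists were more broken than WT.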

How the data were processed

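DamID was made in 22 samples that pair into 11 experiment and control libraries. The authors deposited, for each pair and with replicates not pooled, a list of LAD intervals called with LADetector, whose columns are start and end positions (mm9 per the labels) with no count, score or level. The aligner is not given in the sources used here, no depth is given, and precision comes from how many lists there are. The signal tracks and the X chromosome were not used here, nor gene positions.

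From the lists, intervals on chromosomes 1 to 19 under 25 kb apart were joined and those over 100 kb kept. Treatments were compared over lists, not blocks, by two-sided exact permutation of the sum of squares between treatments (smallest p 0.00952), adjusted over 7 measures by the Benjamini-Hochberg method. Drug lists with the same replicate number share an embryo (1.8 or x17), and so does the shAC list of x17, whereas shAC replicate 1 is embryo 1.5. Same-numbered lists deviated from their treatment means together (Pearson's r over members 0.0991 to 0.189), but with 2 lists a treatment both numbers give the same r, so these are 6 values, and those with shAC join embryos 1.5 and 1.8. Because of the shared embryos, the test within replicate numbers (576 arrangements, smallest p 0.0417) stands beside results whose call it ends. Members were compared with shorter and longer blocks by exact sign-flip over 8 lists. The blocks named are, for each treatment, those with the lowest mean share, those lower than in all other treatments, edges furthest outside and the member whose lists differ most, and over all treatments the longest whole in all lists, the most isolated and those at the length limits. The members and these rules were chosen with earlier results of these data known. The overlap code was tested on simulated data, where 100 random interval sets gave 0 mismatches. Python 3.11.15, numpy 2.4.6 and matplotlib 3.10.9 were used.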

Additional observations from a re-analysis of the deposited data

Results flagged for a closer look

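In 3 descriptions of the members, both lists of one treatment went one way and both lists of another the opposite way. None of these differences between treatments was tested. Members with more than 500 kb to the nearer neighbour, compared with those within 100 kb, kept less under shAC (-0.578 points in embryo 1.5 and -3.62 in embryo x17) and more under BIX01294 (1.16 and 0.502 points) and TSA (6.46 and 3.77 points). The group beyond 500 kb held 68 members, with a median length of 489 kb against 462 kb for those within 100 kb.

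With each chromosome's span cut into 3 equal parts, the last part minus the middle part gave -0.931 and -2.87 points under shAC, -0.130 and -0.110 points under BIX01294, and 5.24 and 2.91 points under TSA. Under TSA the mean shares kept from the first to the last part were 89.3%, 87.9% and 92.0%. Under BIX01294 the differences were under 0.2 points.

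Edges facing gaps of 500 kb and more, compared with edges facing gaps under 100 kb, were drawn inside more often under shAC, by 3.502 and 5.95 points, and less often under TSA, by -4.83 and -1.36 points. The signs within DZNep were mixed in all 3 descriptions.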

How the results depend on the processing

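Values in this section are the largest minus the smallest treatment mean, in percentage points or kb, with p from exact permutation adjusted over 7 measures. With lists as deposited or joined under 50 kb, the blocks were set again from WT lists processed alike. Of 152 alternative values over 9 tested results, 88 kept their direction and their side of the threshold. TSA was lowest in share kept under all 18 alternatives tried for it. Leaving out 1 treated list or using the replicate block could not change this, since both TSA lists lie below all others. With the replicate block, the values were as reported (distance 122 kb, edges inside 14.4, gaps bridged 9.31, kept whole 34.5, share kept 8.93) and none passed the threshold, while the block changed no other call. With lists as deposited, they were 26.8 kb, 7.02, 6.30, 25.3 and 4.64, and with LADs over 200 kb 142 kb, 13.3, 7.90, 34.5 and 10.988, and none passed. Edges inside did not pass when beyond 50 kb (10.8) or 100 kb (6.02), and share kept did not as a mean over members (10.0497), without the outer 50 kb (6.77) or without WT 1.8 (10.2). With equal list length, a choice made after the data were seen, share kept was 6.60 and did not pass, distance was 170 kb (169.706) and members under 50% were 8.08, the last 2 with BIX01294 at the extreme (adjusted exact permutation p = 0.0857 and 0.05). As a mean, distance was 173 kb with shAC furthest. Edges moved outside had another treatment lowest when joined under 50 kb (8.58, shAC) or beyond 100 kb (3.45, TSA). Members under 50% passed when joined under 50 kb (6.91, adjusted exact permutation p = 0.0333) and without shAC replicate 1 (5.75, adjusted exact permutation p = 0.0444). At equal list length their adjusted exact permutation p of 0.05 lay at the threshold, with BIX01294 highest and not TSA. Edges inside, kept whole and gaps bridged had the same adjusted p there, which was counted as passing.

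Leaving out each list in turn gave 105 to 139 kb for distance, 13.4 to 17.9 for edges inside, 7.46 to 11.2 for gaps bridged, 28.9 to 40.2 for kept whole, 8.42 to 11.3 for share kept, 5.53 to 8.83 for members under 50%, and 3.52 to 9.02 for edges moved outside. Without shAC replicate 1 the calls held for share kept, kept whole, edges inside, distance and gaps bridged. With any 1 other treated list left out, all 5 were lost (adjusted p up to 0.211), except that kept whole and gaps bridged still passed without BIX01294 replicate 1. Without DZNep replicate 1, TSA replicate 1 or WT 1.8, TSA was lowest in edges moved outside (5.13, 6.78 and 9.02). Members minus short blocks ran from 7.89 to 13.549 and minus long blocks from -5.76 to -2.70.

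TSA minus WT of the same embryo was -10.4897 points when joined under 50 kb, -5.88 as deposited, -10.5139 with LADs over 200 kb and -7.95 against all WT lists without the replicate block, and -9.99 to -8.68 over single embryos. The ranges were -6.21 to 3.35 for shAC, -0.657 to 4.03 for BIX01294 and -1.19 to 1.47 for DZNep. The cause of these changes was not tested. The lists give no level, so weakly and strongly supported intervals count alike.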
